A study of Mus musculus with 8 samples.

Results

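The 7 genes described here encode products that the male mouse liver makes under growth hormone: *Slco1a1*, *Elovl3*, *Hsd3b5*, *Nat8* and the major urinary protein genes *Mup3*, *Mup20* and *Mup21*. They were picked by gene symbol from a table of 55385 gene identifiers, of which 14340 had enough reads to be tested. The choice was made with the difference between the genotypes already known, so their own differences are given as a description, with no test. All 7 were among the 14340 genes, the test being limited to genes that reached 0.5 FPKM in 4 or more mice. FPKM, the deposited unit, is the count of a gene scaled to its exon length and to the total of the mouse. *Hsd3b5* reached that level in every control mouse and in a single *Usp39*-HKO mouse.

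Liver RNA was sequenced from 4 *Usp39*-HKO mice and 4 control littermates, with one library per mouse. *Usp39*-HKO mice were made from *Usp39* fl/fl mice, in which *loxP* sites flank exon 2, and Albumin-Cre mice, on a C57BL/6J background. The labels give the controls as WT, and whether those mice carried the floxed allele is not given in the sources used here. All 8 mice were males of 5 weeks, fasted for 16 h. The albumin promoter drives Cre in hepatocytes, so the other cells of the liver keep the gene. Usp39 is a component of the spliceosome, the complex that removes introns. The comparison asks how the liver transcriptome differed when hepatocytes lacked it.

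The pituitary of male rodents releases growth hormone in pulses, and that of females releases it more evenly. In hepatocytes the hormone binds its receptor, and the kinase JAK2 then phosphorylates the transcription factor STAT5B. The pulsed pattern keeps a set of male-biased genes on and a set of female-biased genes low, and the sex bias of the liver appears around puberty. Major urinary proteins are lipocalins that hepatocytes secrete, that pass into the urine and that carry volatile pheromones.

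*Usp39* itself, read over all its exons, was at 9.58 ± 0.706 FPKM in controls and 8.44 ± 0.286 in *Usp39*-HKO mice (SD, n = 4 mice each). Its log2 fold change was −0.41 ± 0.111 (SE), with an adjusted p of 0.0212 by edgeR's quasi-likelihood test. All *Usp39*-HKO mice lay below all controls. By design only exon 2 is deleted, and other cells of the liver keep the gene. Reads of single exons were not examined, and the part of either in the remaining level was not tested. The adjusted p was 0.0547 without control mouse 4 and 0.0615 without *Usp39*-HKO mouse 4. Total counts ranged from 8589636 to 10418450 per mouse and overlapped between genotypes (two-sided exact permutation test over 70 assignments, p = 0.657). The hepatocyte markers *Alb* and *Ttr*, which encode albumin and transthyretin, did not pass the test (log2 fold changes of −0.14 and −0.29). Of all genes tested, 11.6% were called lower and 10.9% higher in *Usp39*-HKO mice, for comparison with the marker counts that follow. Over 12 hepatocyte markers 5 fell, among them *Fgg* (−0.83) and *Fga* (−0.68), which encode fibrinogen chains. With 1 mouse left out their adjusted p reached 0.0644 (*Fgg*, missed without control mouse 3 or 4 or *Usp39*-HKO mouse 3) and 0.116 (*Fga*, kept only without *Usp39*-HKO mouse 1). Summed over the 12 markers, FPKM spanned 24260 to 27170 among controls, and 21060 to 28740 among *Usp39*-HKO mice. Markers of other cells moved with genotype as well: 6 of 7 Kupffer cell markers rose (*Marco* by 1.25 and *Cd68* by 0.86 on the log2 scale), 6 of 7 stellate cell markers (*Col1a1* by 1.70 and *Col3a1* by 1.40) and 4 of 4 tested cholangiocyte markers (*Spp1* by 2.32 and *Epcam* by 2.11). All 5 tested erythroid markers fell (*Hbb-bt* by 1.76 and *Alas2* by 1.72), as did *Lyve1* (by 0.997) and *Stab2* (by 0.37) of 6 endothelial markers. *Cd68* (adjusted p = 0.0589) and *Lyve1* (adjusted p = 0.0537) missed the threshold without control mouse 3, and *Stab2* kept it only without *Usp39*-HKO mouse 1. Summed FPKM was 293.3 to 380.6 (controls) and 536.9 to 807.9 (*Usp39*-HKO) for the Kupffer cell list, 73.4 to 83.25 and 114 to 226.9 for stellate cells, 26.45 to 28.7 and 64.2 to 285.7 for cholangiocytes, 91.0 to 102.8 and 96.6 to 102.5 for endothelial cells, and 368.8 to 771.5 and 154.7 to 364.5 for erythroid cells. None of the 5 tested lymphocyte and 3 tested neutrophil markers passed. The lymphocyte list summed to 3.58 to 4.97 (controls) and 3.66 to 5.57 FPKM (*Usp39*-HKO), and the neutrophil list to 17.75 to 48.45 and 10.8 to 76.95. In bulk liver, fewer cells of a type and less RNA per cell cannot be told apart, and the part of these markers in the results below was not tested. Control mouse 4 stood apart in 11 exocrine pancreas genes, with a summed FPKM of 780.9 against 2.92 to 5.81 in the other 7 mice. Without that mouse the log2 fold changes of the 7 genes were −3.70 (*Mup21*), −3.44 (*Hsd3b5*), −3.04 (*Elovl3*), −2.44 (*Mup3*), −2.12 (*Slco1a1*), −0.31 (*Mup20*) and 1.03 (*Nat8*).

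Of the 7 genes, 5 were lower in every *Usp39*-HKO mouse than in every control. These were *Slco1a1*, *Elovl3*, *Hsd3b5*, *Mup3* and *Mup21*. Such a separation by FPKM occurred in 4.81% of all genes tested, and the opposite one in 23.9%. FPKM carries no correction for composition, and on the log2(FPKM + 1) scale the median over all genes was shifted by 0.172 towards the *Usp39*-HKO mice. After TMM scaling, which assumes that most genes do not differ, 6 of the 7 genes had a log2 fold change below 0, as had 50.1% of all genes tested. The same 5 genes were past −2, as were 76 genes (0.53%) in all. The median was −2.42 over the 7 genes and −0.0015 over all genes, and it was 0.237 over all genes without TMM scaling. Since the genes were chosen on this contrast, nothing is read from these counts. For the called genes named below, 22.5% of all genes tested passed an adjusted p under 0.05, 11.6% lower and 10.9% higher in *Usp39*-HKO mice.

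**Figure D1:**
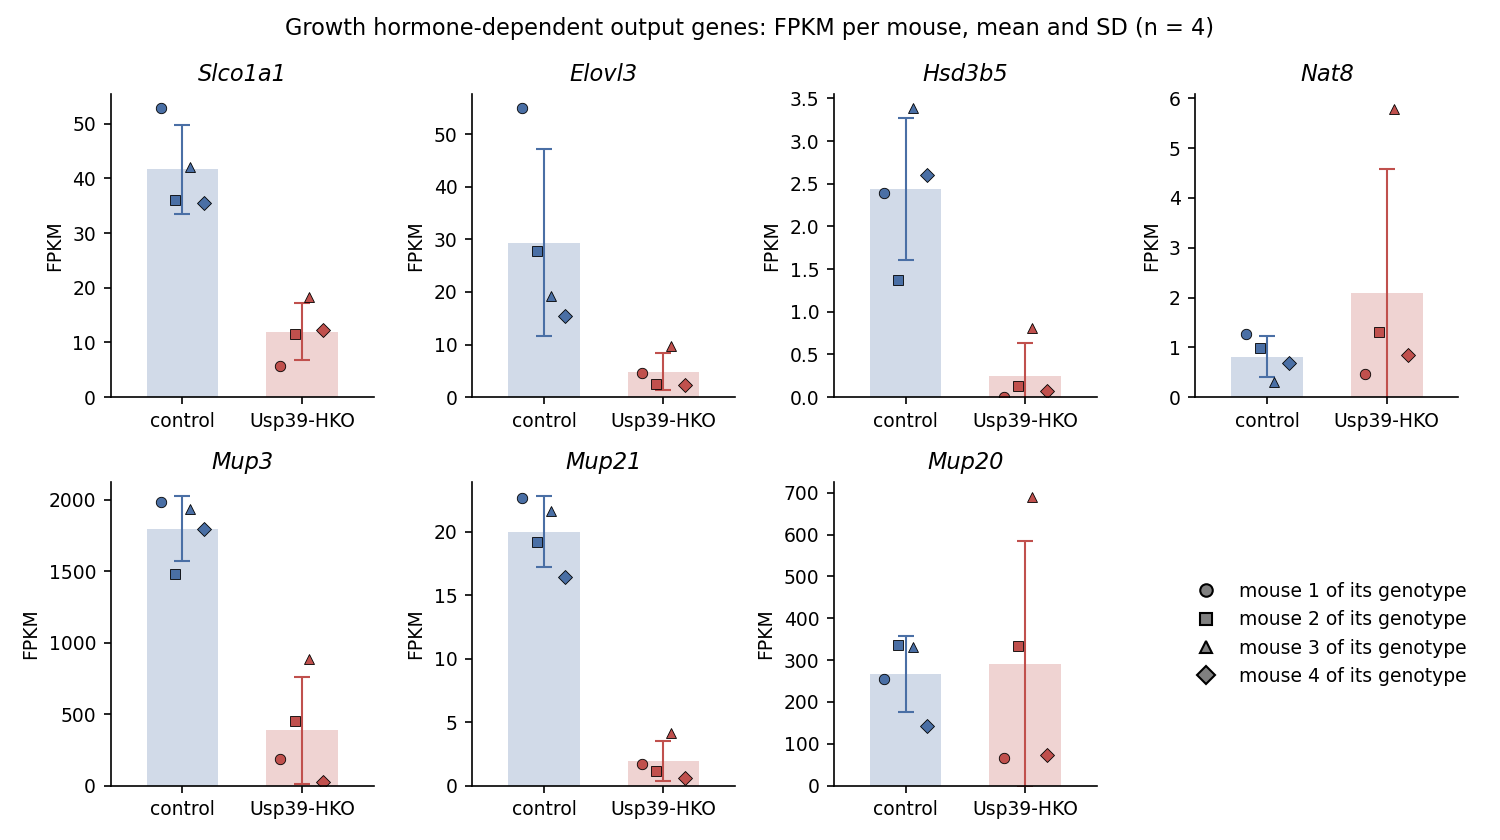
Deposited FPKM of each of the 7 genes, on a linear axis from 0, in 4 control and 4 *Usp39*-HKO mice. Bars are means, error bars SDs and points single mice, with 1 marker shape per mouse of a genotype. *Slco1a1*, *Elovl3*, *Hsd3b5*, *Mup3* and *Mup21* show no overlap between genotypes, and *Nat8* and *Mup20* do, with *Usp39*-HKO mouse 3 (triangle) the highest of its genotype in all 7 panels.

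*Slco1a1* encodes a transporter that takes up organic anions, bile acids and steroid conjugates from the blood into hepatocytes. Its gene lies on the minus strand of chromosome 6 (GRCm38, chr6:141907282-141946962, ENSMUSG00000041698), with 14 merged exons. Its FPKM was 52.9, 36.0, 42.1 and 35.6 in control mice 1 to 4, and 5.75, 11.6, 18.4 and 12.3 in *Usp39*-HKO mice 1 to 4. The highest *Usp39*-HKO mouse was below the lowest control, and the means were 41.65 ± 8.07 and 12 ± 5.17 (SD, n = 4). The level was 4.11-fold lower in *Usp39*-HKO mice (log2 fold change −2.04 ± 0.275, SE), and the log2 fold change stayed between −2.34 and −1.80 when any 1 mouse was left out. Among the 7 genes it varied least within the *Usp39*-HKO mice, with a coefficient of variation of 43.1%.

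*Elovl3* encodes an elongase of very long chain fatty acids. It lies on the plus strand of chromosome 19 (chr19:46131897-46135694, ENSMUSG00000038754, 4 merged exons). Control mice 1 to 4 had 55.0, 27.8, 19.3 and 15.45 FPKM, and *Usp39*-HKO mice 1 to 4 had 4.69, 2.53, 9.82 and 2.35. The groups did not overlap, but the controls themselves spanned 3.56-fold, with mouse 1 the highest. The level was 7.08-fold lower in *Usp39*-HKO mice (log2 fold change −2.82 ± 0.503, SE). Leaving out control mouse 1 gave −2.32, and leaving out *Usp39*-HKO mouse 3 gave −3.43.

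*Hsd3b5* encodes a male-biased liver member of the 3-beta-hydroxysteroid dehydrogenase family, which acts on steroid hormones. It lies on the minus strand of chromosome 3 (chr3:98618634-98630252, ENSMUSG00000038092, 3 merged exons). The gene was scarce in all mice, with 34, 21, 45 and 42 counts in control mice 1 to 4 and 0, 2, 12 and 1 in *Usp39*-HKO mice 1 to 4. In FPKM, this was 2.39, 1.37, 3.38 and 2.60 against 0, 0.127, 0.812 and 0.0681. No *Usp39*-HKO mouse reached the lowest control, and the fitted level was 11.1-fold lower (log2 fold change −3.47 ± 0.646, SE). With so few reads the size of the difference depended on the mice kept and on the scale, from −5.27 without *Usp39*-HKO mouse 3 to −3.07 without *Usp39*-HKO mouse 1, and −1.47 on the log2(FPKM + 1) scale.

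*Nat8* encodes an N-acetyltransferase of the endoplasmic reticulum that acts on cysteine conjugates. It lies on the minus strand of chromosome 6 (chr6:85830388-85832082, ENSMUSG00000030004, 2 merged exons), and like *Mup20* it did not share the lower level of the other 5 genes. Control mice 1 to 4 had 1.26, 0.988, 0.311 and 0.684 FPKM, and *Usp39*-HKO mice 1 to 4 had 0.458, 1.31, 5.79 and 0.845. These stand for 3 to 13 counts in controls and 5, 15, 62 and 9 counts in *Usp39*-HKO mice. The groups overlapped, and *Usp39*-HKO mouse 3 alone was well above the controls. The log2 fold change was 1.12 ± 0.725 (SE) with that mouse and −0.15 without it, so a single library set the direction.

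The 3 urinary protein genes lie next to each other on the minus strand of chromosome 4, at one end of the cluster, in the order *Mup20* (chr4:62050234-62054158, ENSMUSG00000078672), *Mup3* (chr4:62083476-62087342, ENSMUSG00000066154) and *Mup21* (chr4:62147932-62150863, ENSMUSG00000066153). Their longest coding transcripts are alike, with 96.1% identical bases between *Mup3* and *Mup21*, 88.8% between *Mup3* and *Mup20* and 88.6% between *Mup20* and *Mup21* over the aligned part. A BLAST search gave none of the 3 an alignment of at least 150 bases at 97% identity or more with another gene. Stretches that alike inside a longer, less similar alignment may have been missed. The paper states a read length of 150 bases for other libraries of the study and none for these.

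Promoter sequence is shown for *Mup3* and *Mup21*, which were lower in every *Usp39*-HKO mouse, and for *Mup17*, another gene of the cluster that fell, because the 3 are close relatives in this stretch. Each is the 250 bases before the start that RefSeq gives, 5′ to 3′ on the minus strand, from RefSeq on GRCm38.p6, at chr4:62087318-62087567, chr4:62150842-62151091 and chr4:61595833-61596082. GENCODE starts these genes further upstream, so the last 25, 22 and 39 bases of the *Mup3*, *Mup21* and *Mup17* windows lie inside the genes as GENCODE draws them. Capitals mark the TATA box letters TATATAA.
Mup3: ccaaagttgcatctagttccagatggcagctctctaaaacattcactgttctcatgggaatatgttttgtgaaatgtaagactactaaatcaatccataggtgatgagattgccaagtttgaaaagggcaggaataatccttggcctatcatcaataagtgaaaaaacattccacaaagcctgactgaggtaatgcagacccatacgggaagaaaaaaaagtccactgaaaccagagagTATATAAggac
Mup21: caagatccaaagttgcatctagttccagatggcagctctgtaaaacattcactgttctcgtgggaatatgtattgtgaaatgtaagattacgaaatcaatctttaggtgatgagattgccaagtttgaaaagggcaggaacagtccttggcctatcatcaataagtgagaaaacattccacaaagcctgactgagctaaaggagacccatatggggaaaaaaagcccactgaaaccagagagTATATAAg
Mup17: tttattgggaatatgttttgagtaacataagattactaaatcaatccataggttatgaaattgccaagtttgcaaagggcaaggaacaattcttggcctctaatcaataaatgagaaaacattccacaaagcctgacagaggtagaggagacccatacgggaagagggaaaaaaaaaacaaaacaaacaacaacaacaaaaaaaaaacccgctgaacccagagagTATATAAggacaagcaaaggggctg

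The *Mup3* and *Mup21* promoters were identical at 228 of 244 aligned bases (93.4%), *Mup3* and *Mup17* at 176 of 201 (87.6%) and *Mup21* and *Mup17* at 168 of 195 (86.2%). The motif begins 11, 8 and 25 bases before the RefSeq start of *Mup3*, *Mup21* and *Mup17*, within the part that GENCODE places inside the gene. Searched on both strands over windows of 250 bases before to 50 after the RefSeq start, TATATAA was in 2 of the 6 windows of 5 of the 7 genes, in 11 of 12 windows of other *Mup* genes and in 3.24% of all 32851 windows. The STAT5 motif TTCNNNGAA was in 0 of the 6 and 0 of the 12 windows and in 8.3% of all windows. This says only that these letters are absent from these windows.

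*Mup3* was the most abundant of the 7 genes. It had 1982, 1484, 1935 and 1793 FPKM in control mice 1 to 4, and 183.5, 454, 883 and 28.25 in *Usp39*-HKO mice 1 to 4. Controls spanned 1.34-fold and *Usp39*-HKO mice 31.3-fold, and the groups did not overlap. The level was 5.37-fold lower in *Usp39*-HKO mice (log2 fold change −2.42 ± 0.71, SE), between −3.23 and −2.03 with any 1 mouse left out.

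*Mup21* was about as steady in controls, at 22.7, 19.2, 21.7 and 16.45 FPKM in mice 1 to 4, against 1.67, 1.16, 4.18 and 0.623 in *Usp39*-HKO mice 1 to 4. It was lower than in any control in all 4 *Usp39*-HKO mice and had the lowest log2 fold change of the 7 genes, −3.61 ± 0.394 (SE), or 12.2-fold. These levels stand for 116 to 141 counts in controls and 11, 8, 27 and 4 counts in *Usp39*-HKO mice.

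*Mup20*, whose product darcin is the male pheromone that draws females and serves in scent marks, behaved otherwise. Control mice 1 to 4 had 254, 336, 332 and 142 FPKM, and *Usp39*-HKO mice 1 to 4 had 65.2, 334, 691 and 73.9. Among the *Usp39*-HKO mice, 2 lay below all controls, 1 within their range and 1 above all of them. The log2 fold change was −0.10 ± 0.627 (SE), and it turned to 0.13 without TMM scaling and to 0.25 without *Usp39*-HKO mouse 1. Leaving out *Usp39*-HKO mouse 3 gave −0.999. Counts of *Mup20* ran from 588 to 6118 per mouse.

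Ordered by mean FPKM, the controls ran from *Mup3* (1798 ± 224 SD) through *Mup20* (266 ± 90.8), *Slco1a1*, *Elovl3* (29.4 ± 17.8), *Mup21* (SD 2.78) and *Hsd3b5* (2.44 ± 0.83) to *Nat8* (0.811 ± 0.408). The values of *Slco1a1* and *Elovl3* overlapped, as did those of *Elovl3* and *Mup21*. In the *Usp39*-HKO mice *Mup3* (387 ± 375) and *Mup20* (291 ± 294) overlapped, and in mouse 4 *Mup20* was above *Mup3*.

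Within the *Usp39*-HKO mice, 1 mouse was highest for every one of these genes. Mouse 3 had the highest FPKM of the 4 for 7 of the 7 genes, whereas mouse 3 was highest for 17.6% of all genes tested. The lowest was mouse 1 for 4 genes and mouse 4 for the other 3. As a percent of the control mean, mouse 3 reached 49.1% for *Mup3*, 44.2% for *Slco1a1*, 33.4% for *Elovl3*, 33.3% for *Hsd3b5* and 20.9% for *Mup21*. Mouse 4 had 29.4% for *Slco1a1*, 8% for *Elovl3*, 3.12% for *Mup21*, 2.80% for *Hsd3b5* and 1.57% for *Mup3*. This order among mice of one genotype was not tested. Control mouse 1 was the highest control for 5 of the 7 genes, with no share over all genes given here to set beside it.

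**Figure D2:**
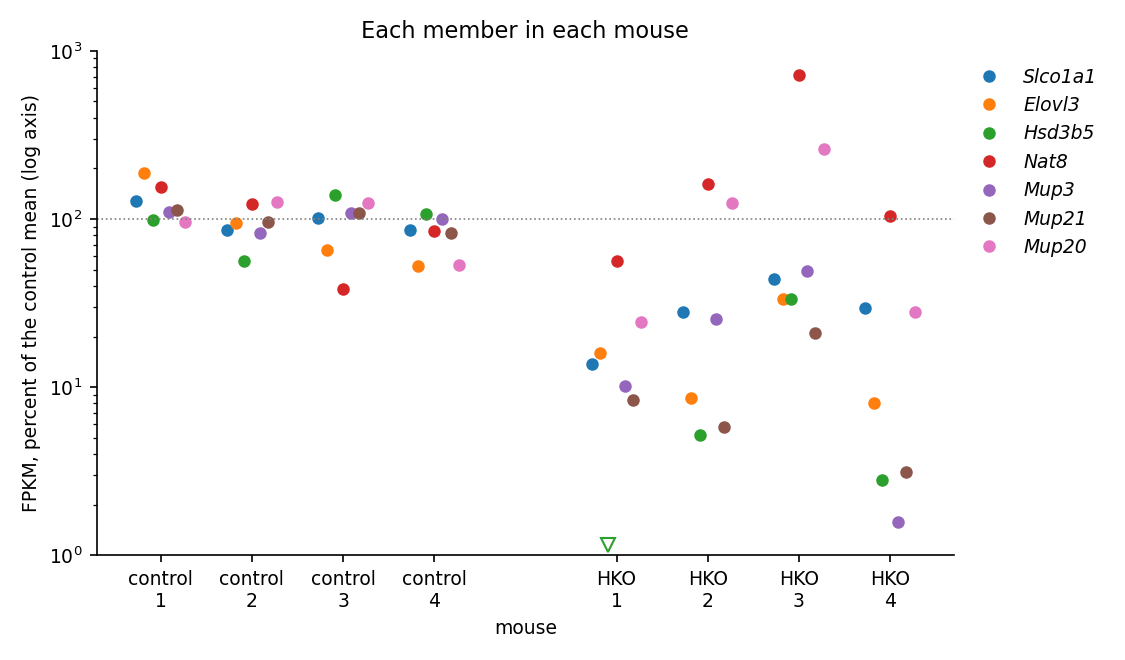
FPKM of each gene in each mouse as a percent of the control mean of that gene, on a log axis, with 1 colour per gene and the control mean as a dotted line at 100. Each point is 1 mouse, and the open triangle at the bottom is *Hsd3b5* in *Usp39*-HKO mouse 1, which had 0 counts. In *Usp39*-HKO mouse 3 all 7 genes are higher than in the other 3 *Usp39*-HKO mice, and *Nat8* (714%) and *Mup20* (260%) exceed the controls there.

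**Figure D3:**
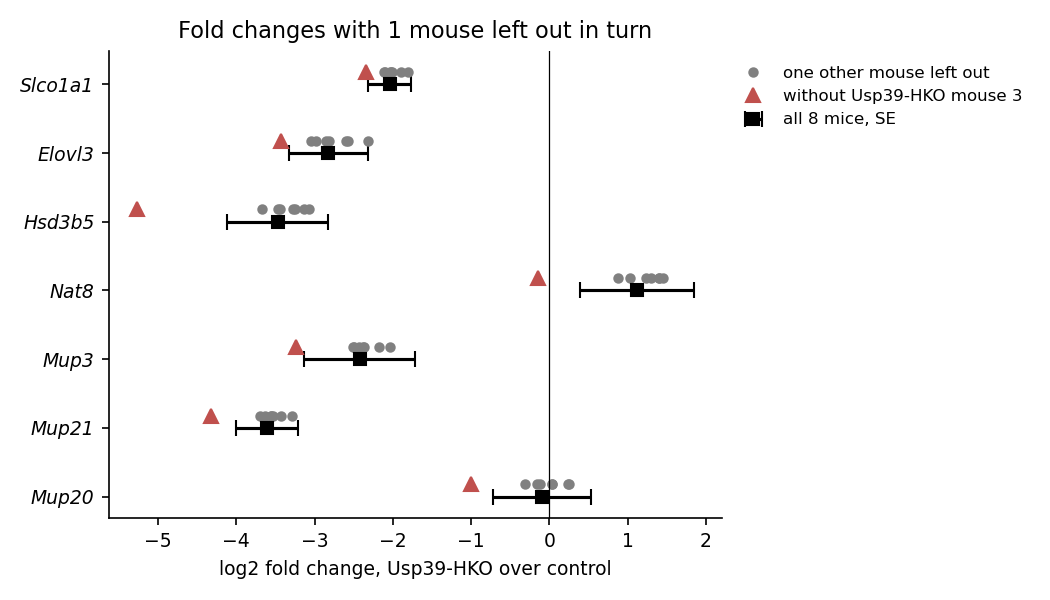
Log2 fold change of each gene, *Usp39*-HKO over control, with all 8 mice (black squares, bars are SEs) and with each mouse left out in turn (grey points, and red triangles for *Usp39*-HKO mouse 3). Without *Usp39*-HKO mouse 3 each of the 7 genes has its lowest value, and *Nat8* moves from 1.12 to −0.15.

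The genes whose levels followed the 7 genes most closely were ranked by their deviations from the mean of their genotype. Pearson's r between a gene and the mean of the 7 genes was computed over the 8 mice for 12302 genes, as a description. The 5 leading genes were *Bcs1l* (r = 0.99), a chaperone of mitochondrial complex III, *Commd7* (0.98), *Mup7* (0.97), *Cyp4a12a* (0.97) and the co-chaperone gene *Dnajb2* (0.97). *Bcs1l* was at 3.38, 4.38, 5.88 and 3.90 FPKM in *Usp39*-HKO mice 1 to 4, and *Dnajb2* at 7.63, 10.1, 14.2 and 9.04. These are narrow ranges beside that of *Cyp4a12a*, at 0.935, 5.75, 22.5 and 0.61. By Spearman's rho 1 of the 5 stayed among the first 5.

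Most other *Mup* genes were low in the *Usp39*-HKO mice as well. The annotation has 19 other protein-coding *Mup* genes, of which 15 were tested, and 10 were called lower and none higher (median log2 fold change −2.62). All 10 reached 0.5 FPKM in every control, but in *Usp39*-HKO mice 2 and 3 at most. They entered the test through the controls, so these calls are not read as support. Without control mouse 3, without control mouse 4 or without *Usp39*-HKO mouse 4 the count of calls was 6, and without *Usp39*-HKO mouse 3 it was 12. *Mup12* had 716, 597, 735 and 789 FPKM in control mice 1 to 4, and 0, 1.48, 5.09 and 0.114 in *Usp39*-HKO mice 1 to 4 (log2 fold change −8.95 ± 0.682, SE). *Mup15* (−8.37 ± 1.52) and *Mup17* (−5.89 ± 1.26) were lower as well. Their control mice disagreed, from 2.27 to 180 FPKM for *Mup15* and from 33.4 to 866 for *Mup17*. *Mup7* did not pass the test (adjusted p = 0.233), at 120 to 653 FPKM in controls and 0, 2.85, 282 and 0 in *Usp39*-HKO mice 1 to 4.

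Of the 19 genes, 16 share over 90% of their longest transcript with other *Mup* genes at the length and identity given above. The counting of reads that match several genes is not given in the sources used here, so the level of a single gene among the 16 is uncertain, and their sum is less so. The sum was 19868, 12320, 15481 and 24547 counts in control mice 1 to 4, and 12, 1635, 6850 and 9 in *Usp39*-HKO mice 1 to 4. *Usp39*-HKO mice 2 and 3 thus kept 8.48% and 38% of the control mean by CPM (counts relative to each library's total), and mice 1 and 4 kept 0.0653% and 0.0502%. In mice 1 and 4, 9 of the 16 genes had no count. *Mup3*, a neighbour of these genes, was still at 10.2% and 1.57% of its control mean in the same mice, and *Mup20* at 24.5% and 27.8%. *Usp39*-HKO mouse 2 drew 75.3% of the sum from 1 gene, *Mup10*, whereas in controls the leading gene gave 31.2% to 44.5% and was *Mup7*, *Mup12* or *Mup17*.

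The makeup of all counts on the 22 protein-coding *Mup* genes differed accordingly. *Mup20* made up 5.20%, 9.88%, 7.35% and 2.99% of them in control mice 1 to 4, and 23.4%, 32.3%, 27.8% and 68.3% in *Usp39*-HKO mice 1 to 4, with no overlap. *Mup3* made up 43.4% to 50.2% in the control mice, and from 30.1% to 75.7% in the *Usp39*-HKO mice. The 22 genes took 0.316% to 0.453% of all counts among the controls, and from 0.01% to 0.231% among the *Usp39*-HKO mice.

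**Figure D4:**
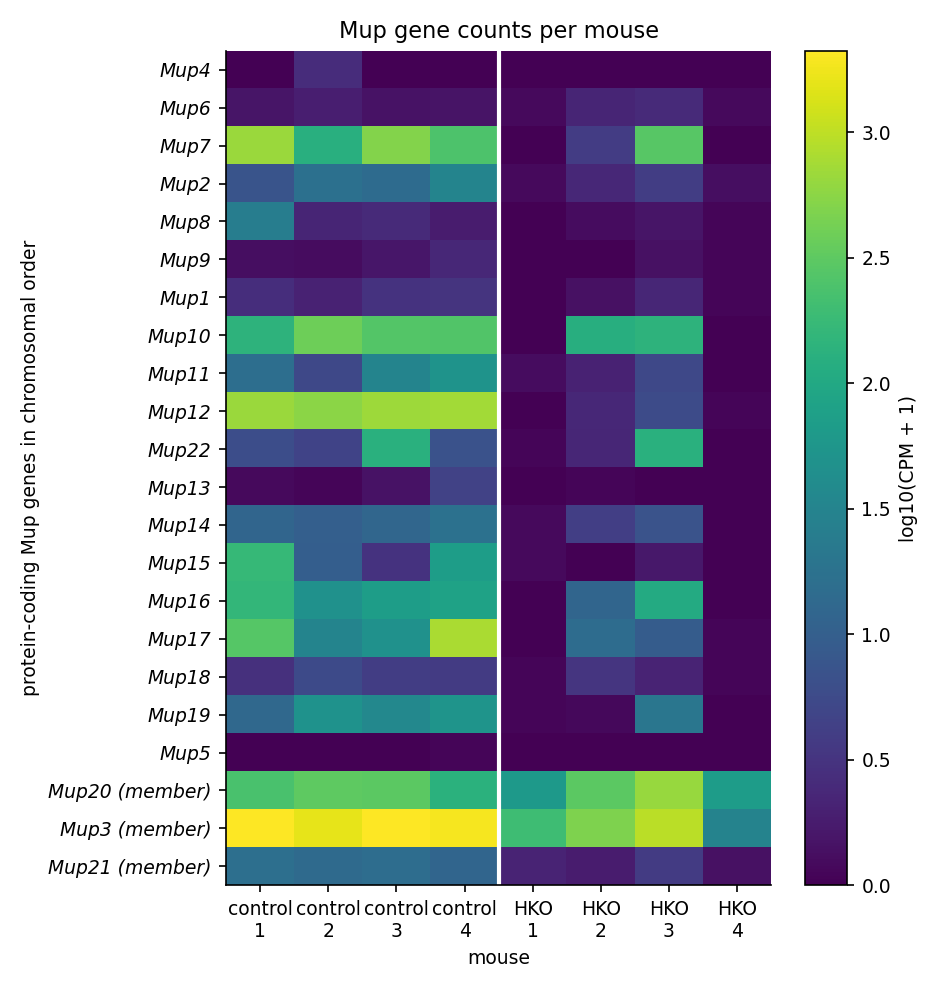
Counts of the 22 protein-coding *Mup* genes in each mouse, as log10(CPM + 1) in colour, with genes as rows in chromosomal order and mice as columns, controls left of the white line. The 19 other genes are close to 0 in *Usp39*-HKO mice 1 and 4, where each had 3 counts or fewer, while *Mup20* and *Mup3* keep counts in all 8 mice. Single genes between *Mup7* and *Mup19* are uncertain because they share sequence.

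Other genes with a male bias in the mouse liver were taken from a list of 22 that holds none of the 7 genes. Of 19 tested, 13 fell and none rose, with a median log2 fold change of −1.42. *Serpina1e*, a serine protease inhibitor, was at 1914, 1133, 1630 and 1706 FPKM in control mice 1 to 4 and 89.5, 193, 615 and 54.9 in *Usp39*-HKO mice 1 to 4 (log2 fold change −2.96 ± 0.631, SE, edgeR adjusted p = 0.00766). *Cyp7b1*, an oxysterol hydroxylase, fell from 17.1 ± 7.78 to 2.91 ± 0.516 FPKM (SD, n = 4, edgeR adjusted p = 0.000567), and *Susd4* from 4.08 ± 1.38 to 0.768 ± 0.160 (edgeR adjusted p = 0.000367). The male-specific cytochromes *Cyp4a12a* (−2.92 ± 0.814, adjusted p = 0.0248) and *Cyp2d9* (−1.70 ± 0.276, adjusted p = 0.00221) fell as well, although *Cyp4a12a* missed the threshold without control mouse 1 or 3 or *Usp39*-HKO mouse 2 (adjusted p up to 0.0687). *Bcl6*, a repressor of the male liver that opposes STAT5, did not pass (−0.32 ± 0.258, adjusted p = 0.412). As for the 7 genes, *Usp39*-HKO mouse 3 was the highest of its genotype for 16 of the 19 genes, against 17.6% of all genes tested. Control mouse 1 was the highest control for 12, with no share over all genes given here.

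Female-biased genes moved in both directions. Of 33 listed 26 were tested, 9 rose and 4 fell, with a median log2 fold change of 0.75. The 9 and the median include *Sult2a1*, *Sult2a2*, *Cyp3a41a* and *Prom1*, whose calls are set aside below. The 4 became 2 without control mouse 3 or *Usp39*-HKO mouse 3. The sulfotransferase gene *Sult2a1* was at 0, 0.396, 0 and 0.282 FPKM in control mice 1 to 4, and at 287, 47.9, 2.16 and 172 in *Usp39*-HKO mice 1 to 4. With every control below 0.5 FPKM, it entered the test only through the *Usp39*-HKO mice, so its call is not read as support. The same holds for *Prom1*, another of the 9. *Sult2a2*, a relative of *Sult2a1*, was at 0.147 to 2.04 in controls and 315, 67.1, 3.40 and 155 in *Usp39*-HKO mice. The female-specific cytochrome *Cyp3a41a* was at 0.414 ± 0.739 FPKM in controls and 15.0 ± 4.73 in *Usp39*-HKO mice (SD, n = 4). Among controls, *Sult2a2* and *Cyp3a41a* reached 0.5 FPKM in mouse 2 alone, so they too entered the test through the *Usp39*-HKO mice. Their calls are not read as support either. *Cyp2a4*, a steroid hydroxylase, rose from 13.3 ± 2.86 to 156 ± 62.7 (log2 fold change 3.34 ± 0.309, SE, edgeR adjusted p = 0.000225). The 4 that fell, named after their values were seen, were *Cyp2c69* (−2.20 ± 0.567, adjusted p = 0.018), *Cyp2c40* (−1.998 ± 0.426, adjusted p = 0.00765), *Fmo2* (−0.79 ± 0.220, adjusted p = 0.0246) and *Cyp39a1* (−0.55 ± 0.169, adjusted p = 0.0364). *Cyp2c69* and *Cyp2c40* lay below all controls in every *Usp39*-HKO mouse and passed with any mouse left out, whereas *Fmo2* and *Cyp39a1* overlapped between the genotypes. *Fmo2* missed the threshold without control mouse 3 or *Usp39*-HKO mouse 3 (adjusted p up to 0.0662), and *Cyp39a1* kept it only without control mouse 2 or *Usp39*-HKO mouse 1 (up to 0.115). *Cyp2b9* did not pass (0.81 ± 0.533, adjusted p = 0.308). *Cux2*, a transcription factor of the female liver, was too low to be tested, at 2.31 FPKM in control mouse 2 and 0.054 to 0.335 in the other 7 mice.

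The order of the *Usp39*-HKO mice was turned around in the female-biased genes. Mouse 3 was the lowest of the 4 for 18 of the 26 genes, against 23.3% of all genes tested. Mouse 1 was the highest for 13, with no share over all genes given here. *Cyp2a4* was an exception, with its highest level, 212 FPKM, in mouse 3. The mouse with the most *Mup3*, *Slco1a1* and *Elovl3* RNA among the *Usp39*-HKO mice thus had the least *Sult2a1* and *Sult2a2* RNA among them. Among controls, mouse 2 was the highest for 15 of the 26 genes, against 32.1% of all genes tested, and mouse 1 for 1.

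**Figure D5:**
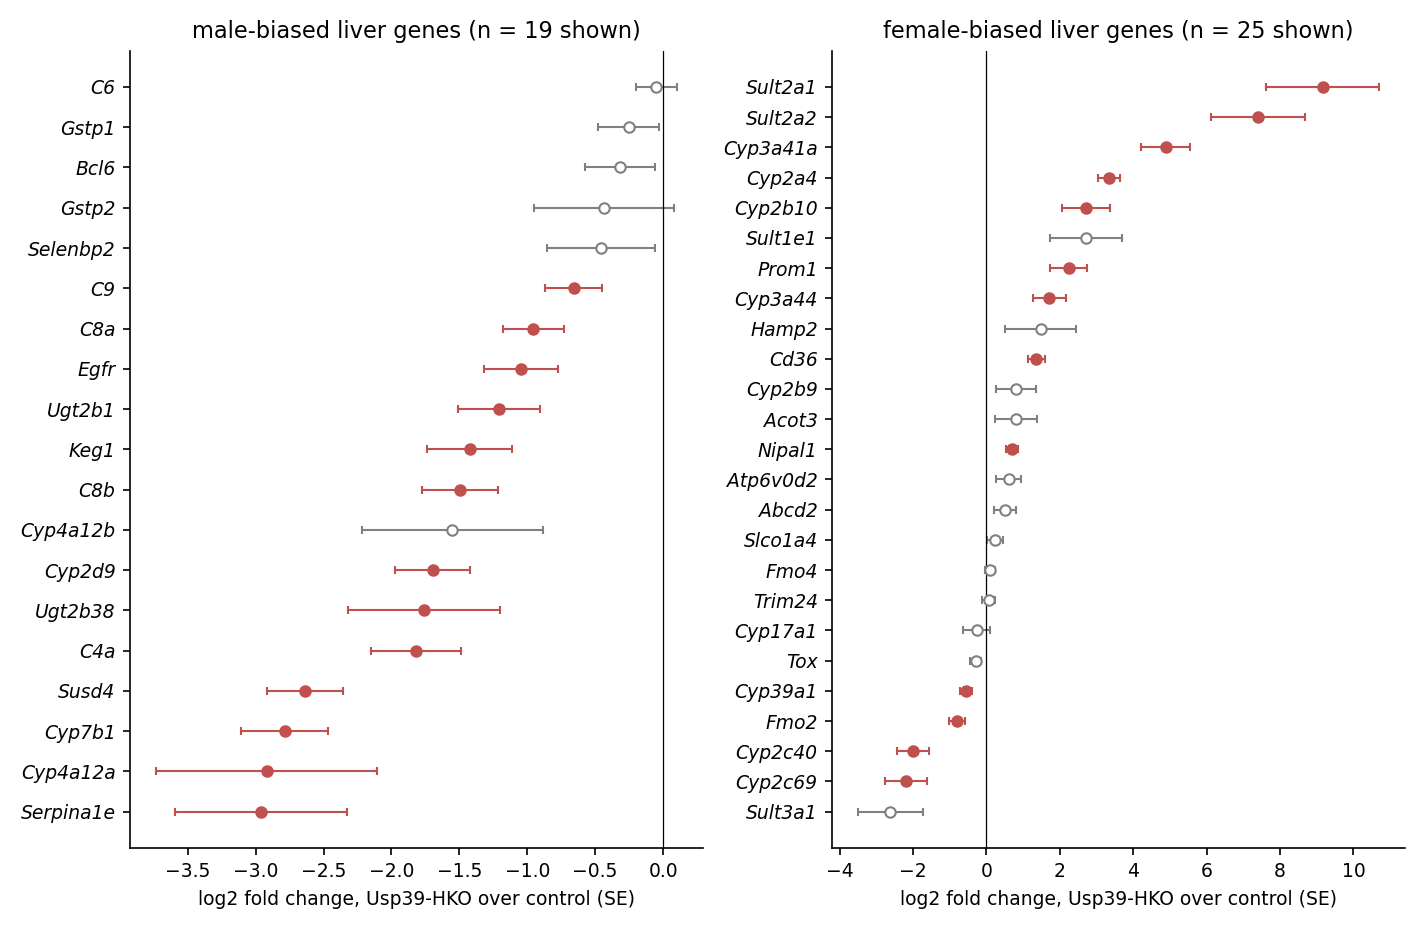
Log2 fold changes, *Usp39*-HKO over control, of the 19 male-biased and 25 of the 26 female-biased liver genes that were tested, none of them among the 7 genes. Points are fitted values and bars SEs, and filled red points passed an adjusted p under 0.05 (edgeR). In the male-biased list 13 genes are called lower and none higher, and in the female-biased list 9 are called higher and 4 lower. Among the 9, *Sult2a1*, *Sult2a2*, *Cyp3a41a* and *Prom1* entered the test through the *Usp39*-HKO mice.

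Genes of growth hormone signalling were read as RNA only, and neither the hormone nor STAT5 phosphorylation was measured here. Of 21 listed genes 20 were tested, 4 fell and 1 rose, with a median log2 fold change of −0.24. Calls in either direction were about as frequent as over all genes tested (22.5%, with 11.6% lower and 10.9% higher). The counts are therefore not read as a result about the list, and the genes are described singly. The growth hormone receptor gene *Ghr* fell from 35.35 ± 6.92 to 20.5 ± 3.15 FPKM (SD, n = 4, log2 fold change −1.01 ± 0.177, SE, edgeR adjusted p = 0.00306). The prolactin receptor gene *Prlr* (−0.57 ± 0.176, adjusted p = 0.0384) and *Stat5b* (−0.54 ± 0.129, adjusted p = 0.0122) fell as well. So did *Igfals* (−1.33 ± 0.248, adjusted p = 0.00401), whose product is part of the circulating complex that holds IGF1. With 1 mouse left out, *Prlr* had an adjusted p of up to 0.103 and was kept only without *Usp39*-HKO mouse 1 or 2. *Onecut1*, a liver transcription factor known as HNF6, rose by 1.22 ± 0.282 on the log2 scale (edgeR adjusted p = 0.0108). *Igf1*, the main growth factor made under the hormone, did not pass (−0.48 ± 0.211, adjusted p = 0.127), at 30.1, 53.2, 57.1 and 33.8 FPKM in *Usp39*-HKO mice 1 to 4 against 44.9 to 61.4 in controls. The feedback inhibitors *Socs2* (0.21 ± 0.502, adjusted p = 0.805) and *Cish* (0.92 ± 0.325, adjusted p = 0.0625) did not pass either. Without TMM scaling 2 genes of the list fell and 5 rose, and 5 rose without control mouse 2 and 2 without *Usp39*-HKO mouse 2.

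The closest relatives of the 4 enzyme and transporter genes did not share one direction. In the Hsd3b family *Hsd3b2* (−1.05 ± 0.263, adjusted p = 0.0162) and *Hsd3b3* (−0.97 ± 0.219, adjusted p = 0.00987) were the 2 tested and both fell, *Hsd3b2* not without control mouse 4 (adjusted p = 0.0574). Of 5 tested elongase genes, *Elovl1* (0.49 ± 0.114, adjusted p = 0.0111) and *Elovl7* (2.54 ± 0.414, adjusted p = 0.00224) rose, and the abundant *Elovl5* did not pass (−0.06 ± 0.133, adjusted p = 0.804). Of 5 tested Slco transporters, *Slco1b2*, the other main organic anion carrier of hepatocytes (−1.0 ± 0.233, adjusted p = 0.0113), *Slco2b1* (−1.09 ± 0.155, adjusted p = 0.00122) and *Slco2a1* (−0.49 ± 0.114, adjusted p = 0.0114) fell and *Slco3a1* rose (0.92 ± 0.192, adjusted p = 0.00692). Of 3 tested relatives of *Nat8*, *Nat8f2* fell (−1.24 ± 0.246, adjusted p = 0.00556), with 229 to 275 FPKM among the controls, and from 66.8 to 164 among the *Usp39*-HKO mice.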

How the data were processed

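RNA from 8 livers was sequenced on an Illumina instrument, and the paper states no read length for these libraries. The authors aligned reads to mm10 with HISAT2 and counted them per gene with featureCounts. Strand and multi-mapping settings are not given in the sources used here. The deposited table holds raw counts, exon lengths and FPKM, which the authors computed from them. Recomputed FPKM differed by at most 3.65e-08. The authors' columns of fold changes and p-values were not used.

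Mice were grouped by labelled genotype. Genes that reached 0.5 FPKM in 4 or more mice were tested with edgeR 4.0.16 (quasi-likelihood test, TMM, no covariates, two-sided, Benjamini-Hochberg over 14340 genes), which was tested on simulated counts. The 7 genes and all lists were chosen with earlier results of these data known. Of each list, the called genes with the largest changes were named, plus preset genes, of which 1 is not reported here. Coordinates came from GENCODE vM21 (GRCm38), promoters from RefSeq, and shared sequence from BLAST+ 2.17.0+. Alternatives were DESeq2 1.42.0, limma 3.58.1, other scalings and filters, and each mouse left out. Totals of 8589636 to 10418450 counts put 3 counts at 0.288 to 0.349 CPM, which covers counting error only.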

Additional observations from a re-analysis of the deposited data

Results flagged for a closer look

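Of 116 groups of 4 mice checked over 58 genes, 12 held 1 mouse that stood apart from the other 3. Chance flags about 1 in 20 groups when values are normal and independent. The genes here shared the same mice, and some were picked for following the 7 genes, so nothing is read from the 12 against that rate. *Usp39*-HKO mouse 3 stood apart as the highest of its genotype in *Hsd3b5* (0.812 FPKM against 0 to 0.127), *Nat8* (5.79 against 0.458 to 1.31) and *Mup7* (281.8 against 0 to 2.85). Control mouse 2 was the highest control in the female-biased genes *Sult2a2* (2.04 FPKM against 0.147 to 0.259), *Cyp3a41a* (1.52 against 0 to 0.14) and *Cux2* (2.31 against 0.054 to 0.152), and in *Marco* (49.1 against 18.2 to 21.0) and *Epcam* (1.29 against 0.844 to 0.875). The other 4 were *Elovl5* in *Usp39*-HKO mouse 2 (542.8 FPKM against 419.4 to 434.5), *Slco2a1* in control mouse 1 (9.31 against 7.88 to 8.09), *Lyve1* in control mouse 3 (28.8 against 20.9 to 21.8) and *Commd7* in control mouse 1 (3.91 against 3.75 to 3.77).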

How the results depend on the processing

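No paired analysis was possible because the labels give no litter or pair that links mice between the genotypes. Without TMM scaling 696 genes were called lower and 3525 higher, against 1664 and 1561, and the log2 fold change of *Mup20* turned to 0.13. The female-biased list then had 2 lower, growth hormone signalling 2 lower and 5 higher, and *Usp39* was at −0.18 (adjusted p = 0.247). limma on log2(FPKM + 1) gave 620 lower and 3012 higher, 2 female-biased genes lower, 2 growth hormone signalling genes lower and 5 higher, 0 of the Hsd3b family, *Usp39* at −0.16 (adjusted p = 0.19) and *Hsd3b5* at −1.47. With a mean FPKM of at least 5, there were 845 lower and 750 higher, 6 other *Mup* genes lower, 8 male-biased genes lower, 2 female-biased genes lower, 0 growth hormone signalling genes higher and 1 each of the Hsd3b and Elovl families, and *Hsd3b5* and *Nat8* were not in that fit. Fewer genes were tested there, and the cause of the other shifts was not tested. Without a filter, 15 female-biased genes were higher, 2 growth hormone signalling genes were higher and 2 of the Nat8 family were called. DESeq2 gave 2 growth hormone signalling genes higher. The cutoff of the study (p under 0.05, log2 fold change past 0.5) gave 2 of them higher and 1 of the Elovl family. Ranked by Spearman's rho, 1 of the 5 most similar genes stayed among the first 5, with ties kept in their original order. TMM factors computed without the *Mup* genes, an alternative added for the lists after seeing the data, changed no call count by over 1.5 times.

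With each mouse left out in turn, genes called lower ranged from 949 to 1666 and higher from 982 to 1847, the lowest of both without control mouse 3, then without control mouse 4 (1023 and 1020) and *Usp39*-HKO mouse 4 (1063 and 1031). Other *Mup* genes lower ranged from 6 to 12, female-biased genes lower from 2 to 6, growth hormone signalling genes higher from 1 to 5 (5 without control mouse 2) and Hsd3b genes called from 1 to 2. *Usp39* ranged from −0.45 to −0.35 and missed the threshold without control mouse 4 or *Usp39*-HKO mouse 4. *Mup20* ranged from −0.999 to 0.25, above 0 without control mouse 2 or 3 (0.03 each) and without *Usp39*-HKO mouse 1 or 4 (0.25 and 0.23). *Nat8* ranged from −0.15 to 1.46 and *Mup21* from −4.33 to −3.29. The number of the 7 genes with a log2 fold change below 0 ranged from 5 to 7. The counts behind *Hsd3b5* and *Nat8* were low, and such differences were hard to measure at this depth. *Mup21* had few counts in the *Usp39*-HKO mice only, from 4 to 27 against 116 to 141 in controls.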
